A study of Mus musculus with 7 samples.

Results

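Non-cycling, Aire-high medullary thymic epithelial cells (mTECs) were chosen by the transcript values of the cells themselves: no Ptprc molecule (Ptprc encodes CD45 of blood cells), an Aire value above 1.5, a Ccl21a value of at most 4, and fewer than 3 of 8 cell-cycle genes (Mki67, Top2a, Ccna2, Cdk1, Birc5, Cenpf, Ube2c and Nusap1) above 0. The values are natural logs of 1 plus the unique molecules (UMIs) of a gene per 10000 molecules of the cell. The rule selected 1411 of 8453 cells, which is 17.2% of the 8220 cells with no Ptprc molecule, and they are called gated cells below. Members and rule were thus selected on Aire, Ccl21a, Ptprc and the 8 cell-cycle genes, and none of these genes is tested here.

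The study followed how mTECs arise and recover in C57BL/6 mice, with 7 libraries of thymic epithelial cells sorted as EpCAM-positive and CD45-negative, each from thymi that were pooled before sorting. A lineage tracing library comes from Aire-CreERT2 Rosa26-CAG-stopflox-zsGreen mice, 6 weeks old, given 2 mg tamoxifen on alternate days over 10 days. The Cre there is driven by Aire and works only with tamoxifen, so ZsGreen marks cells that had Cre activity in that window and the cells that came from them. The other libraries come from C57BL/6 mice given 3 doses of 100 µg antibody in 1 week. The isotype control antibody has a library at week 2 (mice 4 weeks old) and a library at week 10 (12 weeks old), and anti-RANKL has libraries at weeks 2, 4, 6 and 10 (4, 6, 8 and 12 weeks old). Each condition has 1 library, so nothing is tested between conditions, and the intervals given on shares and counts hold counting error only.

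Aire is a nuclear regulator that lets mTECs transcribe genes otherwise restricted to other tissues, so that developing T cells meet those proteins in the thymus. Maturation of Aire-expressing mTECs depends on RANK, a receptor for the cytokine RANKL that signals through NF-κB, and osteoprotegerin is a soluble decoy for RANKL. Mature mTECs are known for class II MHC molecules and for costimulatory proteins such as CD80, and Fezf2 is a further transcription factor that governs tissue antigens in them.

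Within the gated cells, as a description of the rule alone, the Aire value runs from 1.502 to 4.06 with a median of 2.25, and the median cell holds 9 Aire UMIs. Only 12 cells passed on a single Aire UMI, 11 of them in the anti-RANKL week 6 library and 1 in the week 4 library. Ccl21a, the chemokine that marks another mTEC population, is at 0 in 184 gated cells (13.04%) and has a median value of 1.25 over all of them. None of the 8 cell-cycle genes is seen in 815 gated cells (57.8%), 1 is seen in 440 and 2 in 156, and Cdk1, in 231 cells (16.4%), is the one seen in most cells. At the Aire threshold, the 84 gated cells just inside (1.5 to 1.6) had Fezf2 in 85.7% of cells and H2-Aa at 6634 CPM (UMIs of a gene scaled to all UMIs of the same cells). The 76 cells just outside (1.4 to 1.5) that met the other terms had Fezf2 in 80.3% and H2-Aa at 6810 CPM.

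Fezf2, the marker of the label that the rule did not use, had a molecule in 1281 of the 1411 gated cells (90.8%). Summed over the gated cells of a library, Fezf2 ranged from 532.7 to 984.9 CPM with a median of 808.6, against 187.2 to 504.4 CPM with a median of 274.6 in all other cells without Ptprc. Every library had more Fezf2 in its gated cells, and the 2 ranges do not overlap. The difference is 1.32 on the log2 scale (SE 0.18, limma adjusted p = 0.000419, 7 of 7 libraries). Epithelial genes of a list led by Epcam sum to 723.7 to 1165 CPM in gated cells and to 706.1 to 1479 CPM in the other cells, and none of the 6 tested passed in either direction. Fezf2 at equal depth, with every cell thinned at random to 2000 UMIs, is seen in 51.8% to 72.0% of gated cells, by library, in 22.2% to 42.4% of all other cells and in 7.11% to 40.2% of the cells with Ptprc. The cells with Ptprc hold a median of 10161 UMIs before thinning and the gated cells 11579, and how far transcripts from other cells enter either share was not tested.

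The lineage tracing library stands apart from the other 6 by sex-linked transcripts. Its gated cells hold 61 UMIs of Eif2s3y, 33 of Ddx3y, 10 of Uty and 7 of Kdm5d, all Y-linked, and Xist at 149.7 CPM. In the other libraries these Y-linked genes are at 0 in gated cells except for 3 UMIs of Kdm5d in the isotype control of week 2, and Xist runs from 334.4 to 1371 CPM. The paper gives female mice as the default of its experiments, and the labels of the libraries give no sex. The count of genes called in each comparison is therefore also given without it. Among all libraries, 50 barcodes occur in more than 1 library, in 100 cells of which 11 are gated, and no such barcode is gated in more than 1 library.

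Gated cells make up 352 of 1129 cells without Ptprc in the isotype control of week 2 (31.2%, 95% interval 28.5 to 34.0) and 446 of 1247 in that of week 10 (35.8%, 33.1 to 38.5), with a mean of 33.5% (SD 3.25, n = 2). The 2 libraries differ in age, so this SD is not a spread between replicates of 1 condition. In the anti-RANKL libraries they are 57 of 1184 cells at week 2 (4.81%, 3.67 to 6.19), 20 of 1451 at week 4 (1.38%, 0.844 to 2.12), 85 of 719 at week 6 (11.8%, 9.55 to 14.4) and 368 of 1172 at week 10 (31.4%, 28.8 to 34.1). The lineage tracing library has 83 of 1318 (6.30%, 5.05 to 7.75). The share of gated cells is thus low at weeks 2, 4 and 6 after anti-RANKL and at week 10, as deposited, its interval overlaps those of both isotype controls. It is also low in the lineage tracing library, whose mice received no antibody. Thinned to 2000 UMIs a cell, where 1 Aire UMI is enough to pass the threshold and the gate is thus a wider one, the shares in the same order are 36.8%, 40.4%, 5.43%, 1.53%, 14.4%, 34.6% and 8.30%. The interval of anti-RANKL week 10 lies just below that of the isotype control of the same age at 2000 UMIs (31.9 to 37.4 and 37.6 to 43.1), and the 2 overlap at 4000 UMIs (28.5 to 34.3 and 32.2 to 37.9). With no cell-cycle gene allowed, the share is 12.4% (10.5 to 14.5) and 21.8% (19.6 to 24.2) in the isotype controls of weeks 2 and 10 and 20.9% (18.6 to 23.4) in anti-RANKL week 10, so the isotype control of week 2 is then the lower one. Cycling cells are 22.5% and 18.0% of all Aire-high cells in the isotype controls and 23.9% in the lineage tracing library. After anti-RANKL they are 4 of 61 at week 2 (6.56%), 0 of 20 at week 4 (upper limit 16.8%), 7 of 92 at week 6 (7.61%) and 17.9% at week 10. These cycling shares, and the shares with no cell-cycle gene allowed, are as deposited and not at equal depth. Median depth of the cells without Ptprc is 17135 UMIs in the isotype control of week 2. It is 4795 and 4281 UMIs at weeks 4 and 6 after anti-RANKL. Aire in the gated cells, although fixed from below by the rule, is lowest at week 4 (642.1 CPM) and highest in the lineage tracing library (1034 CPM).

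**Figure D1:**
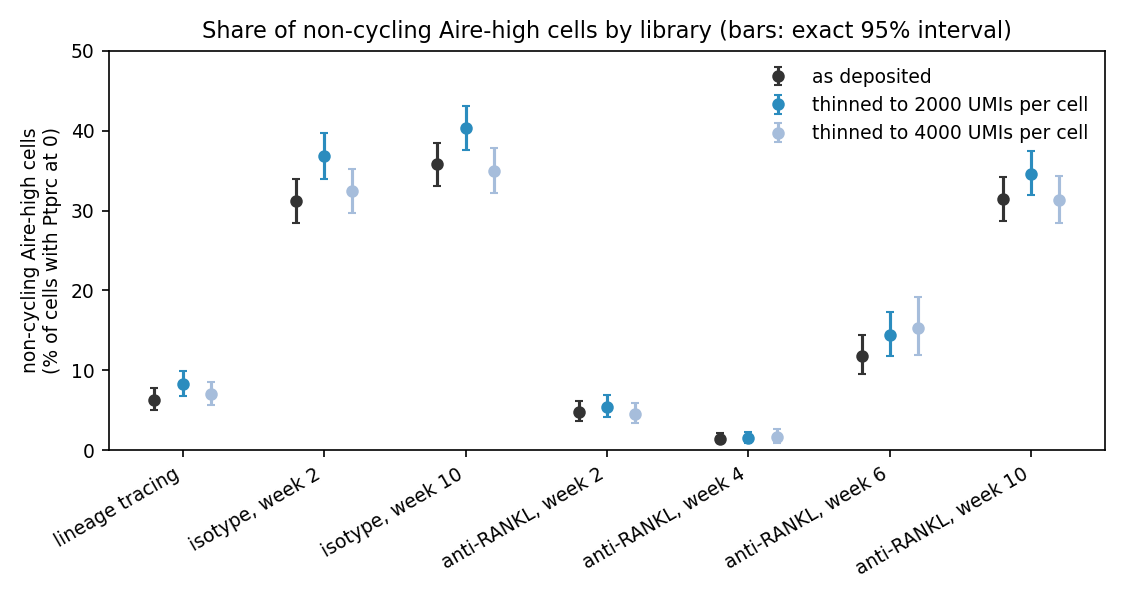
Gated cells as a percentage of the cells without Ptprc in each library, with exact 95% binomial intervals, as deposited and after thinning to 2000 or 4000 UMIs a cell. Each point is 1 library.

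Across genes, gated cells were compared with all other cells without Ptprc, as sums of UMIs for each population in each library, with the library as a block. A gene is called where the limma adjusted p is under 0.05 and the difference is at least 1 on the log2 scale of CPM plus 10. Of 8414 genes tested, 506 were called higher (6.01%) and 410 lower (4.87%), and the median difference over all genes was -0.14. Scaling by median of ratios instead of total UMIs moved that median by 0.11 and gave 613 higher and 323 lower, so the higher share of called genes is 55.2% with the first scaling and 65.5% with the second. Without the lineage tracing library 438 genes were higher and 384 lower. With no cell-cycle gene allowed in the gate, 353 were higher and 356 lower, so the excess of higher genes was gone. The 440 and 156 gated cells with 1 or 2 of these genes then count among the other cells, so both sides of the comparison changed. Cells with a Ccl21a value above 4 are 875 of the 1235 other cells in the lineage tracing library and 684 of 1127, 944 of 1431 and 334 of 634 in the anti-RANKL libraries of weeks 2, 4 and 6, against 160 of 777 and 208 of 801 in the isotype controls. Which cells the gated ones are compared with therefore differs between libraries.

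Of 16 genes of class II antigen presentation tested, 7 were called higher in gated cells and 0 lower, with a median difference of 0.86. H2-Aa, the class II alpha chain, ranged from 5300 to 8391 CPM with a median of 7830 in gated cells and from 2396 to 5123 with a median of 3816 in the other cells. All libraries had more H2-Aa in the gated cells, by 0.67 to 1.51 on the log2 scale (mean 1.02, SE 0.10, adjusted p = 9.07e-05, 7 of 7). H2-Eb2, a beta chain, ranged from 223.1 to 354.5 CPM against 19.7 to 134.7 and rose by 2.04. H2-Oa and H2-Ob, which form the DO molecule that tempers peptide loading, rose by 1.57 and 1.51, and H2-DMb2 of the loading molecule DM rose by 1.24. Ctss and Ifi30, a protease and a thiol reductase of the class II pathway, rose by 1.41 and 1.13. Ciita, the coactivator of class II genes, had a difference of 0.83, H2-Eb1 of 0.75 and H2-Ab1 of 0.52, all under the minimum, and the promoter-binding factors Rfx5, Rfxap and Rfxank had 0.07, -0.52 and -0.15. The 16 genes sum to 40010 to 54270 CPM in gated cells, lowest at week 6 after anti-RANKL and highest at week 2. Cd74, a gene of the list that was not called, weighs most on this sum. In gated cells with an Aire value above 2.5, Cd74 averaged 27150 of 52560 CPM over 6 libraries.

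Since several class II genes moved together, the promoters of the list were read for the CCAAT-type box that is known from class II promoters (RefSeq, build GRCm38.p6, from 250 bases before to 50 after the start). The motif searched is CTGATTGG with its reverse complement CCAATCAG, on both strands, and it contains the shorter ATTGG and CCAAT. The promoters of H2-Ab1, Cd74, Ciita and Rfxap were not read, so the counts below leave these genes out. Promoters were read for the other 12 of the 16 genes. Of these, 4 hold the 8-base motif and 9 the 5-base one, against 1166 (4.31%) and 10248 (37.9%) of 27025 promoters of all genes. The 4 are shown because they carry the longest match, with the motif in capitals: H2-Aa (chr17:34287774-34288073, minus strand), H2-Eb1 (chr17:34305617-34305916, plus), H2-Eb2 (chr17:34325425-34325724, plus) and H2-Oa (chr17:34092129-34092428, plus). H2-Aa, H2-Eb2 and H2-Oa were called higher and H2-Eb1 was not, and a match describes the sequence only.
H2-Aa: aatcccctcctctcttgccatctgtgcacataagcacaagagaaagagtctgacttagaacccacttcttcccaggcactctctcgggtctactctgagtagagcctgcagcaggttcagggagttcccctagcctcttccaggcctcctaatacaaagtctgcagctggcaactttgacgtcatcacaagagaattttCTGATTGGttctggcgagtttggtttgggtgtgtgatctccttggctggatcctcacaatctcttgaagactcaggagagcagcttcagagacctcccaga
H2-Eb1: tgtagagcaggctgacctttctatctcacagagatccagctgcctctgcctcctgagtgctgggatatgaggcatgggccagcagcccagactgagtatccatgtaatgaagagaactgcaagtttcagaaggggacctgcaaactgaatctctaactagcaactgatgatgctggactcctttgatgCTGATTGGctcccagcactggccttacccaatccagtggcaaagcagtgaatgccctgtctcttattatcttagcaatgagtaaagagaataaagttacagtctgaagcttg
H2-Eb2: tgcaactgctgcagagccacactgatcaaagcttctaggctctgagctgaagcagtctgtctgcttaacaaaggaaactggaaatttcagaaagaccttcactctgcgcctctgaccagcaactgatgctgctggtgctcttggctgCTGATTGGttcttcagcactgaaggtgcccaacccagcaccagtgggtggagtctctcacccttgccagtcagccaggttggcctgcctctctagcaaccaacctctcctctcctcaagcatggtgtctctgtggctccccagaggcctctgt
H2-Oa: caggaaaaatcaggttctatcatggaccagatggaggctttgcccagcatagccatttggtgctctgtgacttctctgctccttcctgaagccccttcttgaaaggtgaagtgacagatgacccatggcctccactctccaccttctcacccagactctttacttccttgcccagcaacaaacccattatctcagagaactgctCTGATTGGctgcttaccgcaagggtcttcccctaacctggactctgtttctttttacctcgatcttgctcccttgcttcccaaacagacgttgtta

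Of 8 costimulatory genes tested, 6 were called higher and 0 lower, with a median difference of 1.35. Cd80, the ligand of CD28 and CTLA-4, ranged from 60.4 to 115.0 CPM with a median of 75.7 in gated cells and from 2.76 to 36.4 with a median of 15.2 in the other cells. The Cd80 ranges do not overlap, and the difference is 1.75 (SE 0.30, adjusted p = 0.00134, 7 of 7). Cd86, the sister ligand, rose by 1.16. Icosl, Cd70 and Tnfsf9, which bind ICOS, CD27 and 4-1BB on T cells, rose by 1.46, 1.58 and 1.24. The inhibitory ligands Cd274 (PD-L1) and Pdcd1lg2 (PD-L2) had differences of 0.20 and 0.97, and neither was called.

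Of 17 genes of RANK and NF-κB signalling, 4 were called higher and 0 lower, with a median difference of 0.71. Cd40, a receptor that acts beside RANK in mTECs, ranged from 174.1 to 281.5 CPM with a median of 244.4 in gated cells against 26.2 to 139.1 with a median of 58.7, a difference of 1.75 (SE 0.21, 7 of 7). Tnfrsf11b, which encodes osteoprotegerin, ranged from 108.8 to 175.7 CPM with a median of 137.4 against 3.58 to 94.5 with a median of 24.7, a difference of 1.97. Tnfrsf11a, RANK itself, ranged from 77.3 to 131.2 CPM with a median of 108.8 against 37.4 to 75.7 with a median of 52.0. Its difference of 0.81 has an adjusted p of 0.000604 but is under the minimum of 1. The anti-RANKL week 2 library has the most RANK transcript in its gated cells and the week 6 library the least. Downstream, the adaptor Traf1 and the inhibitor Nfkbia rose by 1.402 and 1.09, while Nfkb2 and Relb of the noncanonical pathway had 0.83 and 0.71, and Ltbr, the lymphotoxin receptor, had -0.74.

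Chemokines split by gene, with 4 of 14 called higher and 1 lower. Ccl25, which draws thymocytes through CCR9, ranged from 374.2 to 2226 CPM with a median of 789.7 in gated cells against 162.3 to 361.9, and rose by 1.73. Its 2 highest libraries, at 2115 and 2226 CPM, are those of weeks 2 and 4 after anti-RANKL, and its lowest is week 6. Ccl17 and Ccl22, both ligands of CCR4, rose by 2.26 and 1.02, each in 6 of 7 libraries, the exceptions being the isotype control of week 10 for Ccl17 and that of week 2 for Ccl22. Cxcl9 rose by 1.28, and Ccl5, with a difference of 1.24 and an adjusted p of 0.0854, was not called. Cxcl12, which cortical epithelium makes, fell by 2.58 on the log2 scale, from a median of 164.0 CPM in the other cells to 10.5 in gated cells.

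Among 16 transcription factors of thymic epithelium, 1 was called higher and 5 lower. Cdx1, a homeobox factor best known from the intestine, ranged from 370.9 to 555.0 CPM with a median of 473.7 in gated cells against 20.3 to 318.7 with a median of 95.6, and rose by 2.04. On the log2 scale, Trp63, the p63 factor of basal epithelium, fell by 1.78, Cited2 by 1.55, Irf7 by 1.54, Eya1 by 1.17 and Pax1 by 1.05. Foxn1, on which the epithelial identity of the thymus rests, had 0.65 and Irf8 0.90, and neither was called. Of 18 genes whose proteins are known to act with Aire, 1 was higher and 0 lower, with a median of -0.24. The 1 gene is Sirt1, the deacetylase that acts on Aire, with 83.7 to 229.1 CPM and a median of 140.7 in gated cells against 16.4 to 63.2 with a median of 25.9. Sirt1 differs by 1.75 (SE 0.15, adjusted p = 3.37e-05, 7 of 7), and its ranges do not overlap.

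Tissue-restricted antigens were taken as 53 genes in 4 lists, of which 33 passed the filter on low values in this comparison, 18 were called higher and 1 lower, with a median of 1.03. Of the others, 19 are too low in these sums to test and 1 is in no file. Gip and Fgg are counted as higher with under 10 CPM in the other cells, so they were tested only because gated cells hold them. Milk genes gave 2 of 2 higher, gut and pancreas peptides 8 of 12, liver genes 4 of 6, and salivary, lacrimal, skin and gut secretory genes 4 of 13 with 1 lower. Csn2, the milk protein beta-casein, ranged from 402.7 to 1615 CPM with a median of 1223 in gated cells against 11.3 to 611.1 with a median of 189.8, a difference of 2.69 (SE 0.36, adjusted p = 0.000421, 7 of 7). Calcb, a calcitonin gene-related peptide, ranged from 540.4 to 1671 CPM with a median of 951.1 against 24.1 to 399.3 with a median of 126.1, a difference of 2.99. The 2 genes lie on different chromosomes (Csn2 at chr5:87692624-87699630 and Calcb at chr7:114718643-114723365, build GRCm38). The hormones Cck, Sct, Nts, Ppy, Pyy and Gip rose by 2.07, 1.63, 1.56, 1.51, 1.497 and 1.45, and the apolipoproteins Apoa2, Apoa4 and Apoa1 by 1.55, 1.35 and 1.12. Reg3g, an intestinal lectin, had a difference of 0.66 and was not called, and its other cells exceed the gated ones in 3 of 7 libraries. Bpifa1, an airway protein, is the antigen that fell, by 2.01 on the log2 scale.

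Among genes called higher, in every library and with at least 50 CPM in gated cells, the largest difference is that of S100a8, a calcium-binding protein of neutrophils and skin, at 458.3 to 2027 CPM with a median of 1472 in gated cells against 2.34 to 544.0 with a median of 136.0. S100a8 differs by 3.23 (SE 0.42, adjusted p = 0.000351, 7 of 7). Hdc, the enzyme that makes histamine, ranged from 337.4 to 623.8 CPM with a median of 524.7 against 5.93 to 224.2 with a median of 67.1, a difference of 2.65. Calca, the calcitonin gene, and Cadps, a factor of vesicle release, rose by 2.64 and 2.65, Fabp6, a bile acid binding protein of the ileum, by 2.66, and Hal, which degrades histidine, by 2.59. Next by the same rule are Gm43569 (2.87), Gm14275 (2.84), the cornified envelope gene Sprr2i (2.75), the CRH-binding protein gene Crhbp (2.69), Psors1c2 (2.66), Gm13539 (2.63) and Gm29461 (2.60). For each of these genes but Psors1c2, the difference is larger in the lineage tracing library and at weeks 2, 4 and 6 after anti-RANKL than in either isotype control or at week 10. Hdc shows this in its other cells, at 5.93 to 67.1 CPM in the first 4 libraries and 184.6 to 224.2 in the last 3, while gated cells of all libraries stay between 337.4 and 623.8.

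**Figure D2:**
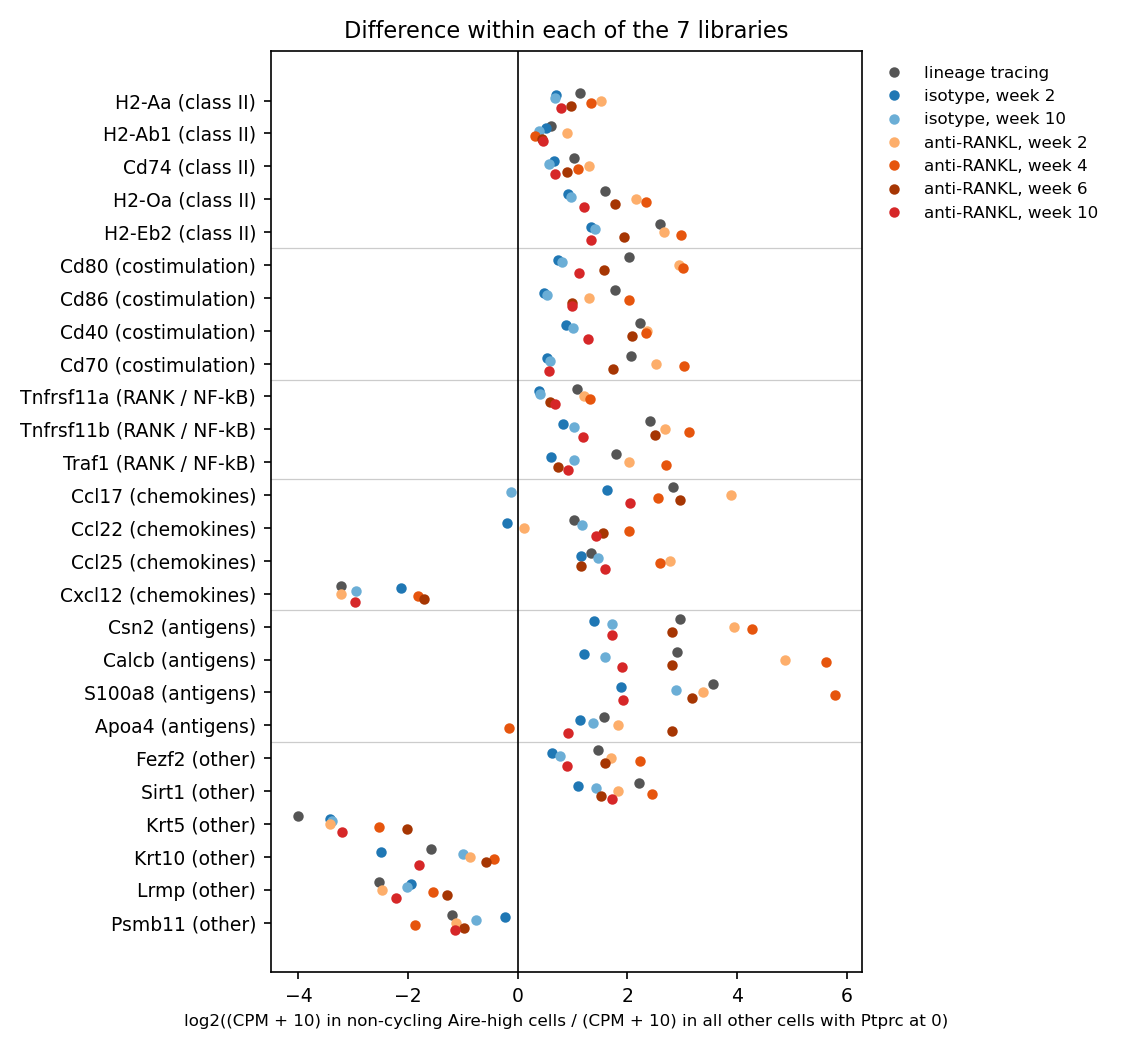
Difference between gated cells and all other cells without Ptprc for named genes, as the log2 ratio of CPM plus 10. Each point is 1 library, by colour.

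Of 15 genes of the Ccl21a-high population, 9 were lower in the gated cells and 0 higher, with a median of -1.73, a comparison that the upper limit on Ccl21a in the rule bears on. Krt5, a keratin of basal cells, ranged from 47.5 to 241.2 CPM with a median of 104.1 in gated cells against 595.5 to 1835 with a median of 1009. It fell by 3.14 on the log2 scale (SE 0.21, adjusted p = 1.99e-05, 7 of 7 libraries), and the highest gated values are those of weeks 4 and 6 after anti-RANKL. On the log2 scale, Apoe fell by 3.23, Igfbp5 by 2.97, Igfbp4 by 2.67, Ly6a by 2.12, Dcn by 2.03, Sparc by 1.82, Pdpn by 1.73 and Krt14 by 1.72. Outside that list the largest falls by the same rule are those of Tagln (-3.25, adjusted p = 1.71e-05), Gas1 (-3.16), Hpgd (-2.94), Ctsl (-2.86), Mgp (-2.86) and Id1 (-2.72), all in 7 of 7 libraries.

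Other mTEC states were read from lists of their genes. All 7 tuft cell genes tested, of 12 in the list, were called lower: on the log2 scale, Rgs13 fell by 2.02, Lrmp by 2.00, Gng13 by 1.32, Dclk1 by 1.26, Avil by 1.21, Trpm5 by 1.10 and Sh2d6 by 1.08. Late keratinocyte genes gave 2 lower and 0 higher of 9, Krt10 (-1.25) and Spink5 (-1.38). Krt10 in gated cells ranged from 22.4 to 38.1 CPM, under the 44.4 to 172.0 of the other cells in every library. Microfold and mucosal genes had 1 lower of 9, Gp2 (-1.35), and neuroendocrine genes 2 higher of 5, Insm1 (1.33) and Syt1 (1.30). Of 10 cortical epithelial genes 5 were lower, among them the thymoproteasome subunit Psmb11 (-1.05), the protease Prss16 (-1.18), the chemokine scavenger Ackr4 (-1.44) and the protease Ctsl, and 3 were higher. The 3 are Ccl25, Tbata (1.26) and Cd83 (1.12), and Tbata alone gives 58.9% of the UMIs of the list in gated cells. Simple keratins split, with Krt7 (-1.42) and Krt19 (-1.52) lower and Krt20 (1.43) higher.

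Early response genes fell in part: of 12, 3 were lower and 0 higher, namely Atf3 (-1.85), Jun (-1.49) and Fos (-1.47). Their list sums to 3527 to 5969 CPM in gated cells and 5557 to 11890 in the other cells, higher in the other cells of every library, and its part in the other differences was not tested. Interferon-stimulated genes gave 4 lower of 11, including Ifit3 (-2.003), Isg15 (-1.95) and Bst2 (-1.10). Isg15 had 58.9 to 139.2 CPM in gated cells against 268.6 to 750.4. A list of 8 chromatin genes (high-mobility-group genes, histone variants and Ptma) gave 3 lower, Hmgb1 (-1.404), Hmgn1 (-1.19) and Hmgb3 (-1.11). The other cells include the cycling cells, which the rule keeps out of the gate. Against non-cycling cells with an Aire value above 0 and at most 1.5, 0 of these 8 genes were called, with a median of -0.38. Genes of the proteasome, peptide transport and class I MHC gave 0 called of 13 with a median of 0.08, Psmb10 having 0.93, and housekeeping genes gave 0 of 8 with a median of 0.06. Median of ratios scaling moved the list counts of this comparison by at most 1 gene: 8 class II, 7 costimulatory, 5 RANK and NF-κB, 2 transcription factor and 1 class I and proteasome genes were then higher, and 4 transcription factor, 4 cortical, 3 interferon-stimulated and 2 chromatin genes lower. With under 10 CPM on their lower side, Cd86 was tested only through gated cells, and Gp2, Trpm5, Sh2d6, Rgs13, Ackr4 and Hpgd only through the other cells.

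Transcripts best known from other cell types are present in the gated cells, although the sort took EpCAM-positive, CD45-negative cells. Whether they come from other cells or from the gated cells themselves was not tested, nor was their part in the results. Myeloid genes sum to 378.9 to 1064 CPM against 30.3 to 421.9 in the other cells, with 95.9% of the UMIs from Lyz2, which rose by 1.83 in 6 of 7 libraries. Thymocyte genes, 9 of the 11 listed being present, sum to 5.44 to 85.6 CPM against 17.2 to 50.6, led by Lck, and B cell genes to 13.9 to 53.8 against 6.48 to 23.8, led by Cd79b. Globin and other erythroid genes sum to 43.3 to 284.0 CPM against 2.58 to 389.5, led by Hba-a2, and Hba-a1 and Hba-a2 rose by 1.21 and 1.02 in 6 of 7 libraries each. Fibroblast genes, led by Col1a1, sum to 12.4 to 50.4 CPM and endothelial genes, led by Pecam1, to 4.64 to 18.1. Cells with Ptprc show these genes as well, at 2000 UMIs. S100a8 is seen in 35.3%, 30.7% and 33.5% of gated cells and in 32.4%, 28.5% and 31.7% of cells with Ptprc in the isotype controls of weeks 2 and 10 and at week 10 after anti-RANKL, so the shares are close where most gated cells lie. Over all libraries S100a8 runs from 6.75% to 35.8% of gated cells, from 0.193% to 16.04% of the other cells and from 0% to 32.4% of cells with Ptprc. Csn2 is seen in 72.7%, 74.6%, 61.6% and 64.5% of gated cells and in 14.3%, 40.4%, 54.0% and 41.4% of cells with Ptprc in the lineage tracing library, the 2 isotype controls and anti-RANKL week 10. In the isotype control of week 10, the closest pair, 13 of the 24 cells with Ptprc have an Aire value above 1.5 themselves. Calcb runs from 49.7% to 74.3% of gated cells and from 4.87% to 42.9% of cells with Ptprc.

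Gated cells hold slightly fewer different genes at equal depth. At 2000 UMIs a cell, gated cells of the 7 libraries showed 934.6 to 979.3 genes with a median of 953.9, against 977.2 to 1008 with a median of 994.6 in the other cells. The gated cells were lower in 7 of 7 libraries, by 36.9 genes on average (SD 15.0; exact 2-sided permutation p = 0.0156, the smallest that 7 libraries allow). Without thinning the order is the reverse in every library, and median depth in the gated cells was 11579 UMIs against 7452. At 4000 UMIs the difference was 70.6 genes, also lower in 7 of 7. The antigen genes go the other way, in lists that were chosen with earlier results of these data known. At 2000 UMIs a gated cell shows 2.16 to 4.17 of the 52 genes present, by library, and one of the other cells 0.281 to 2.28. Aire-low non-cycling cells show 1.10 to 3.56, cycling Aire-high cells of the 4 libraries with at least 10 of them 1.496 to 2.72, and cells with Ptprc 0.511 to 3.48. Gated cells exceed cells with Ptprc in every library, by least in the isotype control of week 10 (3.54 and 3.48, with 24 cells with Ptprc of which 13 are Aire-high) and by most in the lineage tracing library (4.09 and 1.01). In gated cells the number is highest in the isotype control of week 2 (4.17), and lowest at weeks 4 (2.16) and 6 (2.35) after anti-RANKL. Single genes weigh on this number. In the isotype control of week 10, Csn2, Calcb and S100a8 are seen in 61.6%, 74.3% and 30.7% of gated cells. In the other cells of that library they are seen in 24.6%, 32.3% and 10.35%.

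Antigen genes and other named genes differ in how they spread over the gated cells. Of those below, Hdc, Cadps and Fabp6 lie outside the antigen lists, as do Fezf2 and H2-Aa. Pooled over all libraries as deposited, at unequal depth, Calcb is found in 1285 of 1411 gated cells (91.1%). The 5% of cells with most Calcb, 71 cells, hold 30.6% of its UMIs. Csn2 is found in 84.0% of cells with 34.1% of UMIs in the top 5%, Hdc in 85.9% with 26.3% and Cadps in 75.9% with 31.3%. Fezf2, for comparison, is found in 90.8% with 22.8%, and H2-Aa in all cells with 19.1%. A second kind is rare: Cck is found in 136 cells (9.64%) with 96.9% of UMIs in the top 5%, Pyy in 16.2% with 95.8%, Nts in 17.2% with 91.1% and Fabp6 in 19.2% with 88.8%. The share in the top 5% is tied to rarity and is no separate trait. A gene found in at most 71 cells has all its UMIs there. Ins2, insulin, is found in 65 cells (4.61%), and a single cell holds 212 of its 849 UMIs (25.0%). S100a8 lies between, in 51.1% of cells with 57.4% of UMIs in the top 5%, as does Reg3g with 67.9% and 57.5%. A library sum of a gene of the rare kind can therefore rest on a few cells.

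**Figure D3:**
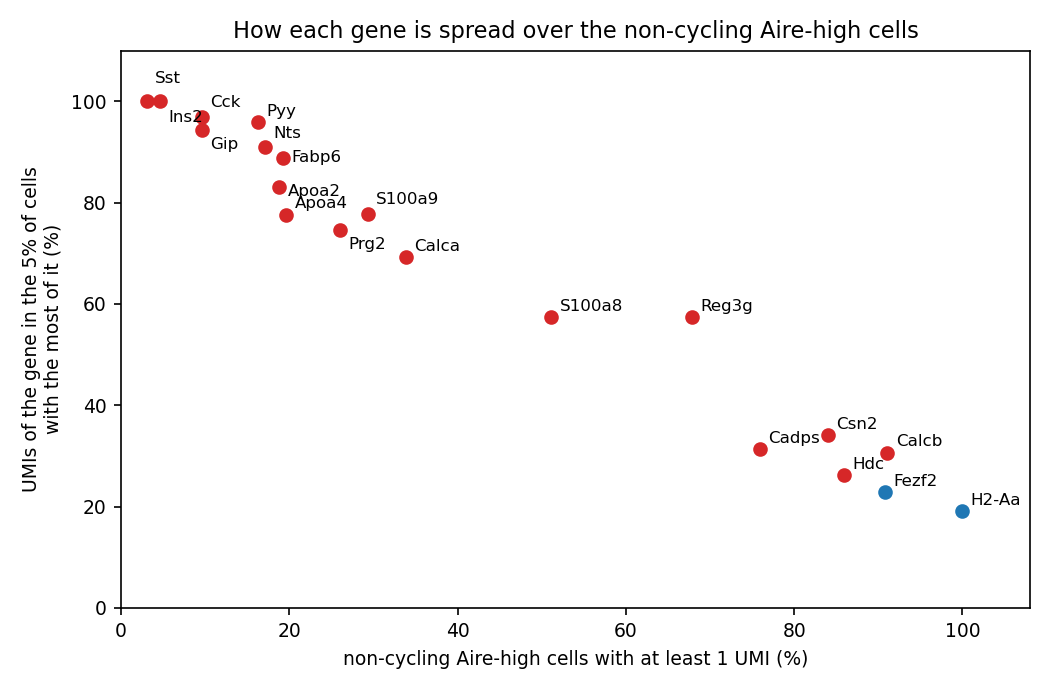
Share of gated cells with a molecule of each gene against the share of its UMIs in the 5% of gated cells with most of it. Each point is 1 gene, with antigen and other genes in red and Fezf2 and H2-Aa in blue. The axes are tied, since a gene found in at most 71 cells is at 100%.

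Against cycling Aire-high cells, the gated cells share the Aire threshold and differ in the cell-cycle genes by rule, with at least 10 cells of each population in 4 libraries (lineage tracing, both isotype controls and anti-RANKL week 10). Of 7861 genes, 462 were called higher in gated cells (5.88%) and 186 lower (2.37%), and without the lineage tracing library 366 were higher and 164 lower. The balance turned with the mean of natural log values, called by adjusted p with no minimum difference, which gave 1165 higher and 2616 lower. The cycling cells hold a median of 22937 UMIs. Fezf2 does not separate the 2 populations, with a difference of 0.14 and an adjusted p of 0.183. Of 33 antigen genes tested, 23 were higher and 0 lower, with a median of 1.74, among them Csn2 by 1.80 and S100a8 by 2.85. Of these, Wap, Ins2, Gip, Apoc3, Fgg, Bpifa1, Reg3b and Fabp2 have under 10 CPM in cycling cells, so they were tested only because gated cells hold them, and count and median are a description. The same holds for Camp, Cryaa, Sbpl, Ccl2, Cd86, Oasl1, Psmb11 and Alas2 where they are called higher in this comparison, and in the other direction for Knstrn and Lmnb1, which have under 10 CPM in gated cells. Among markers of other cells, Hba-a2 had 1.70 (adjusted p = 0.0498), Alas2 1.07 and Lyz2 1.55 (adjusted p = 0.101), and their part in the antigen differences was not tested. Scaling by median of ratios gave 441 genes higher and 208 lower against cycling cells. Over the list genes compared between scalings, erythroid genes went from 1 higher to 0 and simple keratins from 2 to 1. Ccl21a-high genes went from 3 higher and 0 lower to 2 and 1. Calcb, by contrast, had 0.82 and was not called. By the same rule of naming, the largest differences are those of Spp1 (3.23), Pyy (3.16), S100a9 (3.10), the antimicrobial peptide gene Camp (3.07), Nts (2.99), the lens crystallin Cryaa (2.98), Pcp4 (2.96) and Sbpl (2.94).

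Chemokines were called higher than in cycling cells in 4 of 12 cases: Ccl5 (2.75, 717.6 against 110.3 CPM, adjusted p = 0.00669), Ccl2 (2.19), Ccl25 (2.03) and Ccl17 (1.81). Class II genes gave 1 higher of 15, H2-Ob (1.07), with H2-Aa at 0.71, and costimulatory genes 1 of 8, Cd86 (1.22). Sirt1 rose by 1.34 and Traf1 by 1.93. Of 11 interferon-stimulated genes, 3 were higher than in cycling cells, Ifit1 (1.90), Isg15 (1.16) and Oasl1 (1.09). Of 8 chromatin genes (high-mobility-group genes, histone variants and Ptma), 6 were lower in gated cells, with a median of -1.75. By the same rule of naming, the largest falls are Knstrn (-2.62), Smc2 (-2.28), Lmnb1 (-2.25), Hmgb1 (-2.16), H2afz (-2.09), Hmgn2 (-2.004), Hmgb3 (-1.94) and Kpna2 (-1.91). These fell with the cycle genes that chose the populations, though none of them was itself in the rule.

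Against Aire-low cells, which are non-cycling with an Aire value above 0 and at most 1.5, the differences are few: 61 of 8369 genes were called higher (0.729%) and 79 lower (0.944%) over 7 libraries. Both populations are separated by Aire itself, 1411 gated cells from 747. The higher share of called genes is 43.6% here and 61.2% (93 higher and 59 lower) with median of ratios scaling, which moved list counts by at most 1 gene (costimulatory 1 and RANK 2 higher, cortical 1 higher and 2 lower, tuft 4 and Ccl21a-high 4 lower). Without the lineage tracing library 56 genes were higher and 72 lower. Class II genes gave 0 of 15 called, with H2-Aa at 0.41, costimulatory genes 0 of 8, with a median of 0.58, and Fezf2 had 0.43 (adjusted p = 0.0109, 6 of 7). Cd40 had 0.91 and Sirt1 0.64, and neither was called. Tnfrsf11b, osteoprotegerin, is the RANK list's 1 call in 17, with a difference of 1.19 (adjusted p = 0.00167). Of 34 antigen genes 2 were higher, Calcb (1.54) and S100a8 (1.52), and 1 lower, Pigr (-1.21), with a median of 0.34. The erythroid list moves the same way, with 1 of 4 higher, Hba-a2 (1.09), and a median of 1.09, and its part was not tested. Gm13539 (1.91), Gm43569 (1.75), Psors1c2 (1.74), Crhbp (1.62), Tbc1d4 (1.49) and Thrsp (1.49, adjusted p = 0.0488) rose most besides.

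Lower in gated than in Aire-low cells are 5 of 8 tuft genes with a median of -1.18, led by Lrmp (-1.72), Rgs13 (-1.597) and Gng13 (-1.46), and 5 of 15 genes of the Ccl21a-high list. Krt10 fell by 1.66 on the log2 scale, from 137.2 CPM in Aire-low cells to 30.2, as did Krt19 (-1.64), Cited2 (-1.39) and Cldn3 (-1.19). Besides Lrmp, the largest falls are those of Gsta4 (-2.08), Wfdc18 (-1.86), Dapl1 (-1.84), Plac8 (-1.81), Krt5 (-1.70) and Ltc4s (-1.67). Each of these 6 genes, and Krt10 and Lrmp with them, is lower in the gated cells of 7 of 7 libraries. Pigr, Trpm5, Rgs13 and Gsta4 have under 10 CPM in gated cells and were tested only through Aire-low cells.

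Within non-cycling cells with Ccl21a at most 4, levels were set out by 5 bands of Aire, as a description: no UMI (2049 cells), above 0 to 1.5 (747), 1.5 to 2 (451), 2 to 2.5 (536) and above 2.5 (424). The upper 3 bands are the gated cells. Means are given over the 6 libraries with at least 10 cells in every band, which leaves out week 4 after anti-RANKL. Fezf2 averages 177.2, 529.3, 678.2, 760.0 and 797.9 CPM in these bands, so most of the rise of the mean lies below the threshold of the gate. That does not hold in every library: at week 6 after anti-RANKL the values are 112.9, 345.0, 554.1, 699.8 and 664.4 CPM. H2-Aa averages 3179, 5881, 6973, 7521 and 7865 CPM, and Tnfrsf11a 46.4, 99.5, 103.9, 110.1 and 110.6. Cd40 averages 37.4, 114.5, 222.1, 229.7 and 303.5 CPM, and between the first 2 gated bands it goes down in 3 of the 6 libraries. The mean of Krt5 goes down through all bands, from 565.3 over 390.8, 134.3 and 111.6 to 66.1 CPM, while Krt10 goes from 226.4 and 152.4 to 35.7, 23.7 and 27.2. The antigen list averages 5487, 5932, 7122, 6599 and 7105 CPM, with no steady rise over the gated bands. It goes down over them in the lineage tracing library and the isotype control of week 2, and up in the isotype control of week 10 and at week 6 after anti-RANKL.

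**Figure D4:**
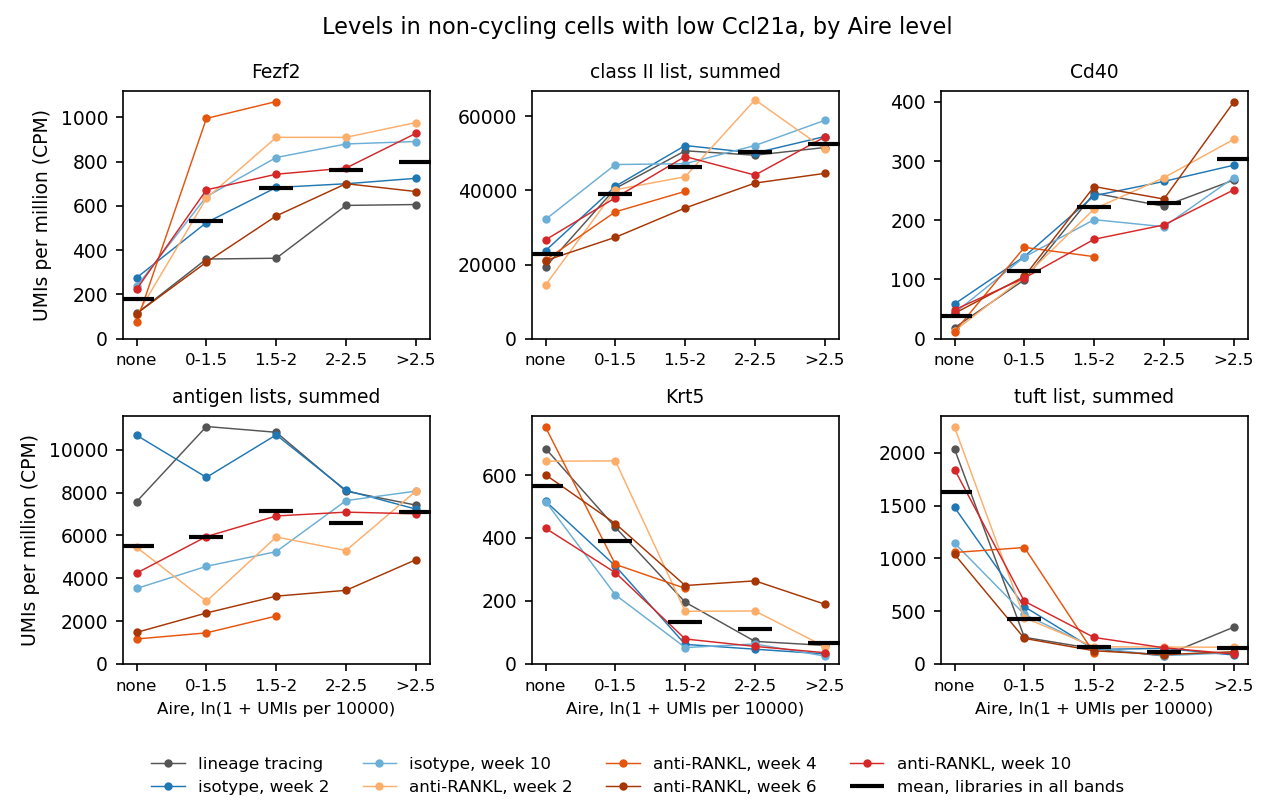
CPM of named genes and lists in 5 bands of the Aire value, non-cycling cells with Ccl21a at most 4. Lines are libraries, and black bars are the mean of the 6 libraries with cells enough in every band (all but anti-RANKL week 4).

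For gated cells after anti-RANKL beside the isotype control of the same age, genes with at least 100 CPM in either library were counted by a fold of at least 3. At week 2, 31 of 1478 genes were higher (2.10%) and 23 lower (1.56%). At week 10, 3 of 1350 were higher (0.222%) and 2 lower (0.148%). Between the 2 isotype controls, which differ in age and library and cannot be told apart in these, 5 of 1391 were higher at week 10 (0.359%) and 3 lower (0.216%). The 3 counts set 57 cells against 352, 368 against 446 and 446 against 352, and were not made at equal cell numbers, so they do not rank the libraries by distance.

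Several of the week 2 genes come from single cells. Gm5941 has 208 UMIs, 207 in 1 cell, against 0 in the control, at least 477.9-fold, and Hbb-bh1 has 158 UMIs in 1 cell. Tslp, an epithelial cytokine, has 334.7 against 5.79 CPM (57.8-fold), with 275 of 352 UMIs in 1 of 7 cells, and Slpi has 419 of 422 UMIs in 1 cell (5.94-fold). Tac1 has 300 of its 311 UMIs in 1 cell, and Gm8773 73 of 112. Cryba2, a crystallin also known from endocrine cells, has 561.9 against 50.4 CPM (11.2-fold) in 14 cells, and Stmn2 of neurons 112.2 against 13.8 CPM (8.13-fold) in 23 cells. Lower at week 2 are Spp1 (0 against 142.9 CPM, at least 50.1-fold), Rhox12 (0 against 129.8 CPM, at least 45.5-fold), Hba-a2 (3 UMIs, 2.85 CPM with a counting interval of 0.588 to 8.34, against 119.3), Igfbp6 (5.71 against 179.5 CPM, 31.5-fold), Mt3 (12.0-fold), Bglap (8.10-fold), Lyz1 (39.0 against 257.4 CPM, 6.60-fold) and Dppa3 (5.80-fold). Of the 352 gated cells of the control, Rhox12 is found in 27, Hba-a2 in 31, Bglap in 34, Spp1 in 59, Dppa3 in 73, Igfbp6 in 84, Mt3 in 97 and Lyz1 in 164. There, 1 cell holds 285 of 941 Rhox12 UMIs, 251 of 865 of Hba-a2 and 372 of 1036 of Spp1, so the sums of these 3 genes rest on few control cells.

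Gene lists at week 2 are described by the genes that differ by at least 1 on the log2 scale, where over all 8081 genes 170 were higher, 242 lower and the median was 0.01. Of 33 antigen genes 2 were higher and 14 lower, with a median of -0.58. The salivary, lacrimal, skin and gut list has 7 of 13 lower, a median of -1.12 and a sum of 1793 against 3963 CPM. Gut and pancreas peptides have 6 of 12 lower, although their sum is 2553 against 2490 CPM. Class II genes have 0 of 15 in either direction, with a median of -0.01 and a sum of 54260 against 51860 CPM. Chemokines have 4 of 13 higher and a sum of 8165 against 3990 CPM, with Ccl5 at 2417 against 698.5 and Ccl25 at 2115 against 581.0. Cortical epithelial genes sum to 5222 against 2203 CPM, with Ccl25 in that list as well and Tbata at 2573 against 1403. Early response genes have 3 of 12 higher, with a median of 0.63 and a sum of 4952 against 3573 CPM. Thymocyte genes sum to 47.5 against 14.9 CPM, myeloid genes to 398.4 against 744.7 and erythroid genes to 196.8 against 185.7. The part of these lists in the other week 2 differences was not tested.

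At week 10 antigen genes have 2 higher and 3 lower of 38 with a median of 0.09, and class II genes 0 of 15 with a median of -0.14, where over all 8088 genes 40 were higher and 37 lower with a median of -0.01. Retnla (5.12-fold), Spp1 (4.58-fold) and Slpi (3.03-fold) are the 3 genes higher at week 10, and Gm5771 (26.1-fold, from 449 UMIs in 1 control cell) and Hbb-y (3.83-fold, 444 of 526 control UMIs in 1 cell) the 2 lower. Between the controls the genes are Hbb-y (7.31-fold) and Gm5771 (4.17), with most UMIs again in those single cells, Spry2 (4.38), Slc39a1 (3.54) and Hspa1a (3.22), higher at week 10, and Gip (3.78), Rhox12 (3.35) and Igfbp6 (3.30), lower. Weeks 4 and 6 after anti-RANKL have no control of the same age. Their gated cells have antigen sums of 4380 and 3656 CPM, the lowest of the 7 libraries, against 5930 at week 2, 7003 at week 10, 8640 and 7015 in the isotype controls and 8660 in the lineage tracing library. Fezf2 at week 4 has 984.9 CPM, the highest of all libraries, on 20 cells, while the share of gated cells with Fezf2 at 2000 UMIs is 55.0% there, near the low end of the 7. Trp63 is highest at week 6 (69.6 CPM) and week 4 (43.5 CPM) against 11.7 and 14.5 in the isotype controls. Gated cells hold 183771 UMIs in all at week 4 and 646636 at week 6. These Trp63 values thus rest on few molecules, and the difference was not tested.

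In the lineage tracing library the ZsGreen transcript was found in 77 of 83 gated cells (92.8%, interval 84.9 to 97.3), 21 of 26 cycling Aire-high cells (80.8%) and 84.2% of Aire-low cells. It was found in 54.6% of non-cycling cells with no Aire UMI, 37.3% of Ccl21a-high cells and 44 of 69 cells with Ptprc (63.8%). At 2000 UMIs a cell the same shares are 64.0%, 40.6%, 54.7%, 31.4%, 11.3% and, for cells with Ptprc, 29.4%. The intervals of gated (52.6 to 74.1) and Aire-low cells (43.4 to 66.7) overlap at that depth. The 6 gated cells without ZsGreen hold a median of 8593.5 UMIs against 13689 in the 77. In those 6 cells Krt5 sums to 726.7 CPM against 61.6 and the Ccl21a-high list to 22170 against 3222, and the median Aire value is 2.05 against 2.33.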

How the data were processed

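The 7 libraries were made with Cell Ranger 2.2.0 and Seurat 2.3.4 per the submitters' notes, with 730 to 1475 cells and median depths of 4299.5 to 16809 UMIs a cell. The deposited tables hold natural log (ln) values that the authors made from UMIs scaled within each cell; their methods give a scale factor of 1000, while the values add up to 10000 a cell. Whole UMIs were recovered from them (tolerance 0.001). The combined tables repeat the same cells and were not used. UMIs were summed by library and population (at least 10 cells) and fitted with limma 3.58.1 in R 4.3.3 (trend, robust, library as block) on the log2 scale of CPM plus 10, for genes with a mean of at least 10 CPM; adjusted p covers all genes tested. The gate genes and a list of 151 cell-cycle genes were left out of the tests. Knstrn, Smc2, Lmnb1 and Kpna2 are not on that list and were tested. Cells were thinned 20 times to 2000 UMIs, and exact permutation flipped the sign of library differences. Shares have exact binomial and counts exact Poisson 95% intervals, and a fold against 0 UMIs uses 3. The paper names no doublet step. Scrublet in scanpy 1.11.5 marked 31 of 8453 cells (0.367%), 4 of them gated. Its calls were not checked against an expected rate, so it is not relied on as a doublet filter. Further tools were pandas 2.3.3, scipy 1.17.1, matplotlib 3.10.9 and numpy 2.4.6 in Python 3.11.15. Members and the 29 gene lists were chosen with earlier results of these data known. Named genes are genes of the lists, the first 15 higher and 10 lower against other cells and 8 each way in the other fits (called, the same way in every library, at least 50 CPM in the higher population), and up to 8 each way between libraries of the same age. The Y-linked genes, Xist and the genes named between the 2 isotype controls were chosen after their values were seen.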

Additional observations from a re-analysis of the deposited data

Results flagged for a closer look

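Cd274, which encodes PD-L1, was picked out because the sign of its difference between gated and other cells is not the same in 2 groups of libraries. Its mean is -0.11 on the log2 scale over the lineage tracing library and the 2 isotype controls (-0.04, -0.23 and -0.07) and 0.43 over the anti-RANKL libraries of weeks 2, 4, 6 and 10 (0.43, 0.75, 0.52 and 0.01). Some of these values lie near 0, among them 0.01 at week 10 after anti-RANKL and -0.04 in the lineage tracing library. The difference between the 2 groups of libraries was not tested.

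Cells with a Ptprc molecule lie outside the gate, and the Aire-high ones among them were picked out as data that were not analysed otherwise. Of the 233 cells with Ptprc, 36 have an Aire value above 1.5 (15.45%, interval 11.1 to 20.7). They hold a median of 1.5 Ptprc UMIs and 13976.5 UMIs in all, against 9691 in the other cells with Ptprc. Fezf2 sums to 511.6 CPM in them, 153.8 in the other cells with Ptprc and 764.8 in gated cells, and the thymocyte list to 341.1, 1329 and 40.1 CPM. None of these differences was tested.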

How the results depend on the processing

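Against all other cells, 506 genes higher and 410 lower became 438 to 542 and 384 to 444 with each library left out. Against cycling cells, 462 and 186 became 366 to 537 and 164 to 252, and against Aire-low cells 61 and 79 became 48 to 71 and 63 to 92. The counts also depend on the pseudocount: with 1 CPM, 750 genes were higher and 813 lower against other cells, so that lower genes outnumber higher ones, 774 higher and 369 lower against cycling cells, and 121 higher and 177 lower against Aire-low cells; with 50 CPM the same 3 comparisons gave 134 and 99, 104 and 46, and 11 and 13. With the mean of ln values, called by adjusted p with no minimum difference, they gave 1846 and 2302, 1165 and 2616, and 660 and 810. Lower genes then outnumber higher ones against other cells and against cycling cells too, where scale and minimum were changed at once. Against Aire-low cells, median of ratios scaling gave 93 higher and no replicate block 39. The shares moved with the gate. In the order lineage tracing, isotype control week 2, isotype control week 10, anti-RANKL week 2, 4, 6 and 10, an Aire threshold of 1 gave 8.95%, 37.8%, 44.4%, 6.84%, 2.21%, 17.0% and 38.3%, and a threshold of 2 gave 4.55%, 21.4%, 25.0%, 3.04%, 0.620%, 6.82% and 21.5%. At week 10 the intervals of anti-RANKL and control are apart with a threshold of 1 (35.5 to 41.2 and 41.6 to 47.2) and overlap with 2 (19.2 to 24.0 and 22.6 to 27.5). With no cell-cycle gene allowed, the shares were 3.49%, 12.4%, 21.8%, 3.21%, 8.07% and 20.9% in the same order without week 4. Thinned to 2000 UMIs, the lineage tracing library had 8.30%, the isotype controls 36.8% and 40.4%, and anti-RANKL weeks 6 and 10 14.4% and 34.6%; week 6 had 15.3% at 4000 UMIs. Among cells with at least 4000 UMIs, an alternative chosen after seeing the data, week 6 had 16.3%. ZsGreen in gated cells went from 92.8% to 64.0% at 2000 UMIs and 78.8% at 4000. The genes per cell difference stayed between -40.2 and -33.1 with each library left out, and was -70.6 at 4000 UMIs. Of the values recomputed for genes named from the fits and beside the controls at weeks 2 and 10, 1040 kept call and direction, 44 kept the direction only, and 1 reversed: Slpi at week 2, 2.41 on the log2 scale of CPM and -0.0197 as a mean of ln values. Genes named between the controls are not among these; Gm5771 has 1.72 and -0.000376 there. The cause was not tested for any of these. Leaving out the 5% of cells with the highest doublet scores, also chosen after seeing the data, gave 507 and 420. Week 4 rests on 20 gated cells, and with 1 library a condition no difference between conditions has a replicate.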
